A study of Mus musculus with 4 samples.

Results

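The genes described here encode the subunits of the respiratory chain and the ATP synthase, complexes I to V of the inner mitochondrial membrane. They were chosen by symbol: Nduf followed by a, b, c, s or v and a digit, Sdha to Sdhd, Uqcr, Cox4 to Cox8, Atp5, and every gene whose symbol starts with mt-. The rule found 94 genes among the 18220 of the single-cell tables, 81 encoded in the nucleus and 13 on mitochondrial DNA. The nuclear group held 37 genes of complex I, 4 of complex II, 8 of complex III, 16 of complex IV and 16 of complex V. The mt- group held 7 genes of complex I, 1 of complex III, 3 of complex IV and 2 of complex V. Cox8b was listed only for the non-malignant cells, so 93 genes were in both tables.

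Complex I (NADH dehydrogenase) and complex II (succinate dehydrogenase) pass electrons towards complex III (the cytochrome bc1 complex), which reduces cytochrome c, and complex IV (cytochrome c oxidase) hands them to oxygen. Complexes I, III and IV pump protons, and complex V uses the gradient to make ATP. The mt- genes are read from long precursor transcripts by a dedicated polymerase and encode core subunits, whereas the nuclear genes are transcribed one by one and their proteins are imported. Complex II is encoded in the nucleus alone. Some complex IV subunits exist as alternative genes used in different tissues.

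The cells came from hind limb sarcomas of an allograft model on the 129/SvJae background, with Trp53flox/flox in the labelled genotype of all 4 mice. Vehicle (PBS) was given to 2 mice, and digoxin, a cardiac glycoside that inhibits the sodium pump, was given to 2 mice at 2 mg/kg by intraperitoneal injection every 24 h. Digoxin was dissolved in DMSO before dilution in PBS, and tumors were taken after dose 4, dissociated with enzymes and profiled by droplet sequencing of transcript 3′ ends. The authors' tables separate malignant from non-malignant cells and name cell types among the latter.

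Malignant cells numbered 3976 to 6269 per mouse, with a median of 46799 to 57658 unique molecular identifiers (UMIs, counted RNA molecules) per cell. Non-malignant cells numbered 3014 to 3344 per mouse, with a median of 15837 to 16671, and 2418 to 2748 of them were macrophages. Levels are given as CPM, UMIs of a gene scaled to 1000000 UMIs per cell and averaged over the cells of a mouse. Malignant cells had the leukocyte gene Ptprc at 7.94 to 10.4 CPM. The type named Epithelial had Epcam at 0 to 0.358 CPM and Cdh1 at 0 to 1.24 CPM, while the endothelial gene Cdh5 was at 859 to 971 CPM. The type named Microglia had the microglial gene Tmem119 at 0 to 2.75 CPM, P2ry12 at 14.5 to 31.9 CPM and Csf1r at 0 to 16.8 CPM, with Siglech, which other cells also express, at 2178 to 2592 CPM. Those 2 names are used here only as the authors' labels. Of 31611 barcodes, 113 sequences occurred in more than 1 library.

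Promoter windows from RefSeq (build GRCm38.p6) were matched by symbol for 64 of the 81 nuclear genes and ran from 250 bases before to 50 bases after the start. Shown are Atp5g1, Atp5g2 and Atp5g3, whose mature product, subunit c of complex V, is the same protein and whose levels differed between populations, and the pair Cox7a1 and Cox7a2, alternative genes of one complex IV subunit. Capitals mark exact matches to the motifs searched. The windows are chr11:96075582-96075881 on the minus strand for Atp5g1, chr15:102670998-102671297 on the minus strand for Atp5g2, chr2:73911277-73911576 on the minus strand for Atp5g3, chr7:30183921-30184220 on the plus strand for Cox7a1 and chr9:79759804-79760103 on the minus strand for Cox7a2.
Atp5g1: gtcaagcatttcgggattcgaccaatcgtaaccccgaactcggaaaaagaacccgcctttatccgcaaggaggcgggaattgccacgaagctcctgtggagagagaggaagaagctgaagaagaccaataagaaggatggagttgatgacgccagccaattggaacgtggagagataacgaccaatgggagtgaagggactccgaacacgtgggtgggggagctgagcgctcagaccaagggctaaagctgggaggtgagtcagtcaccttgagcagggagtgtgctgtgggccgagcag
Atp5g2: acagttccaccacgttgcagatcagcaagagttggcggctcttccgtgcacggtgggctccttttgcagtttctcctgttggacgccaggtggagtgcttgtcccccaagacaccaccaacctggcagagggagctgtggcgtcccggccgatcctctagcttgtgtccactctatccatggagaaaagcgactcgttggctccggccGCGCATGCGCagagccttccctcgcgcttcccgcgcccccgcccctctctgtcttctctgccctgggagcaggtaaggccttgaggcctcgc
Atp5g3: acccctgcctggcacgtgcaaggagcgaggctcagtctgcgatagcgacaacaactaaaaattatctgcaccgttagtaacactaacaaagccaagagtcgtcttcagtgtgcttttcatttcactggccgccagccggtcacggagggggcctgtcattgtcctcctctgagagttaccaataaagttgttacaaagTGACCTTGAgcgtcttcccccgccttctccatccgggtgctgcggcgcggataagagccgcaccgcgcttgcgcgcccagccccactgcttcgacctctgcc
Cox7a1: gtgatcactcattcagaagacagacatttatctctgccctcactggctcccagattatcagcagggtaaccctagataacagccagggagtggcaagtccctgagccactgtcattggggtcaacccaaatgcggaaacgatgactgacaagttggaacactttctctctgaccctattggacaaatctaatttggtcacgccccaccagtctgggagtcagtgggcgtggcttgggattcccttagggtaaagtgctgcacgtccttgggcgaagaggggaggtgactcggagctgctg
Cox7a2: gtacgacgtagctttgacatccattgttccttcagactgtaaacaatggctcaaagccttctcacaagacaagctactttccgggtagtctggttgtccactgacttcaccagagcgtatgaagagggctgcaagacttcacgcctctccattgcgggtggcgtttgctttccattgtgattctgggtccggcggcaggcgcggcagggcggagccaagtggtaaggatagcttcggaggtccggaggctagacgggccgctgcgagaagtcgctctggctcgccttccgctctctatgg

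Motifs of 4 factors or families known for genes of mitochondrial proteins were searched on both strands. The NRF1 motif, the letters in capitals in the window of Atp5g2, was found for 5 of the 64 genes (7.81%) and for 1.07% of 27025 genes. A gene counted if any of its windows held the motif, and 5 of the 64 genes had more than 1 window. The ETS motif CCGGAAG was in 16 (25%) against 9.93%, and the YY1 motif AAGATGGC in 9 (14.1%) against 3.19%. The ERR motif TCAAGGTCA was in 2 (3.125%) against 0.466%. Atp5g3 held the ERR letters on the reverse strand, and a match is a description of letters, not of binding. None of the 4 motifs was in the windows of Atp5g1, Cox7a1 and Cox7a2. ETS and YY1 letters overlapped in 0 members.

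In malignant cells the mt- genes held a larger share of UMIs than the nuclear group in all 4 mice. The mt- share, as a mean over cells, was 6.27% and 6.36% with vehicle and 6.11% and 6.15% with digoxin. The nuclear share was 2.43% and 2.34% with vehicle and 2.37% and 2.49% with digoxin. The digoxin mice were the lower pair in the mt- share, by 0.182 percentage points, and overlapped the vehicle mice in the nuclear share. With UMIs summed over cells, the mt- share was 5.87% and 6.08% against 5.68% and 5.39%. Digoxin mouse 2 had 102 malignant cells above 20% mt- UMIs, where the other mice had 45, 58 and 50. Those cells had a median of 9990.5 to 12647 UMIs, against 47049 to 58053 in the rest. Without them the difference in mt- share was −0.466 points.

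**Figure D1:**
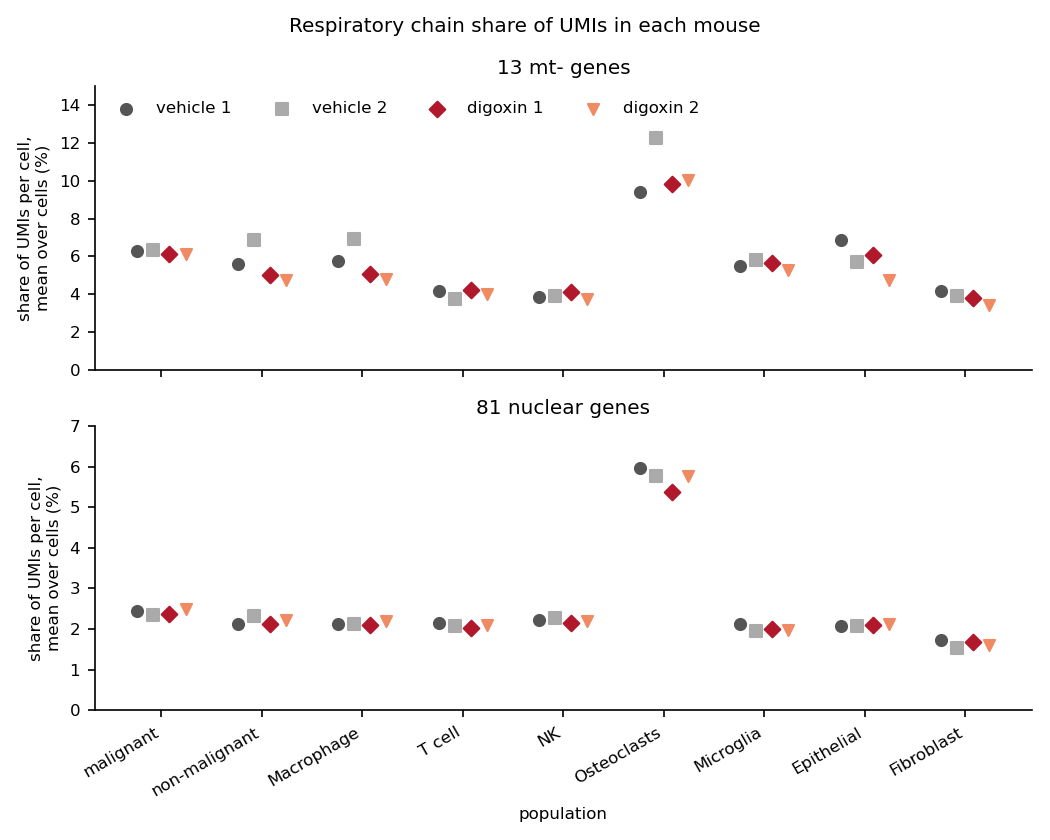
Share of UMIs (mean over cells, percent) from the mt- genes and from the nuclear genes in each population, 1 point per mouse. Osteoclasts sit highest for both groups, and in macrophages the vehicle mice sit above the digoxin mice for the mt- genes only.

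Within malignant cells the nuclear share was higher in deeper cells in all 4 mice, and the mt- share was highest in the shallowest ones. With the cells of a mouse ranked by UMIs and divided into 4 equal depth classes, the nuclear share in vehicle mouse 1 was, from shallow to deep, 2.13%, 2.31%, 2.58% and 2.72%. In digoxin mouse 2 it was 2.16%, 2.36%, 2.65% and 2.78%. The mt- share of the shallowest and deepest classes was 7.47% and 5.51% in vehicle mouse 1, and 8.68% and 5.05% in digoxin mouse 2. More RNA in a cell and better capture of it cannot be told apart here.

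The ratio of the nuclear to the mt- share differed among the named types. Its log2 was −0.82 ± 0.08 in NK cells (SD, n = 4 mice, as for the other types), −0.85 ± 0.18 in osteoclasts and −0.95 ± 0.08 in T cells. It was −1.22 ± 0.12 in fibroblasts, −1.37 ± 0.06 in malignant cells and −1.39 ± 0.25 in macrophages. The types named Microglia and Epithelial had −1.46 ± 0.09 and −1.47 ± 0.23. T cells and fibroblasts did not overlap over the mice, and the other neighbors in this order did. NK cells had a nuclear share of 2.21% ± 0.0508 and macrophages 2.14% ± 0.0487, but their mt- shares were 3.91% ± 0.142 and 5.64% ± 0.945. The types were defined on these cells, so differences between types are descriptions with no test. Dendritic cells, neutrophils and B cells, with 4 to 34 cells per mouse, had nuclear shares of 1.41% to 2.01%.

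Osteoclasts, which resorb bone and are known to be rich in mitochondria, had the highest share of both groups in every mouse. The nuclear share was 5.97% and 5.78% with vehicle and 5.38% and 5.77% with digoxin. The mt- share was 9.43% and 12.2% against 9.81% and 10.0% in the same order. Against macrophages of the same mouse, 76 of 80 nuclear members were higher in all 4 mice, where 20.2% of 13809 genes were. The median log2 difference was 1.42 over the nuclear members, 0.91 over the mt- genes and −0.24 over all genes. Complexes II and III had the largest nuclear medians, 1.78 and 1.79. Osteoclasts numbered 28 to 152 cells per mouse and had the acid phosphatase gene Acp5 at 8936.5 to 15970 CPM.

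The members with the largest difference within complexes III, II and I, chosen after their values were seen, had log2 differences of 2.19, 1.87 and 2.09. Over all members the largest was that of Cox7a1 of complex IV, at 3.26. Uqcrc2, a core protein of complex III, was at 479.5, 413, 404 and 429 CPM in osteoclasts of vehicle mice 1 and 2 and digoxin mice 1 and 2, and at 94.6, 100.2, 87.15 and 92.7 CPM in their macrophages. Sdhb, the iron-sulfur subunit of complex II, was at 643, 519, 472 and 562 CPM against 139.6, 163, 141 and 153 CPM. Ndufb5, an accessory subunit of complex I, was at 1018, 936, 822 and 897 CPM against 216, 218, 209.7 and 212 CPM. The 2 types did not overlap in these genes.

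NK cells, T cells and fibroblasts had lower mt- levels than macrophages, and the nuclear members were mixed in the first 2 and mostly lower in fibroblasts. In NK cells all 13 mt- genes were lower in every mouse, where 36% of genes were, with a median log2 difference of −0.55. In T cells 12 of 13 were lower, where 29.8% of genes were, with a median of −0.52. Of 80 nuclear members, 22 were higher and 33 lower in NK cells, and 15 and 28 in T cells, where 27.1% and 28.6% of genes were higher. Fibroblasts had 60 of 80 nuclear members lower than macrophages and 11 of 13 mt- genes, with medians of −0.40 and −0.65, where 36% of genes were. The macrophage sub-clusters differed in mt- share, with 3.92% to 4.90% over the mice in M1 and 5.73% to 7.99% in M2. The Highly proliferative M2 cells had 4.75% to 6.21%. The shares of T cells (3.74% to 4.21%), NK cells (3.78% to 4.10%) and fibroblasts (3.42% to 4.19%) overlapped that of M1 macrophages.

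Digoxin was compared with vehicle first in malignant cells, where no member passed an adjusted p of 0.05 (limma, Benjamini-Hochberg adjustment over 17220 genes) and 0% of all genes did. At an unadjusted p under 0.05, 1 of 93 members passed, where 3.41% of all genes did. edgeR and DESeq2 on summed UMIs called 0 members. The median log2 difference, digoxin minus vehicle, was 0.02 over the nuclear members, 0.02 over the mt- genes and −0.01 over all genes. With summed UMIs the mt- median was −0.03, with cells of at most 20% mt- UMIs −0.04, and without vehicle mouse 2 −0.02, so its direction was not settled.

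The member with the smallest p was mt-Atp8, a small subunit of complex V, at 69.7 and 71.8 CPM with vehicle and 83.5 and 94.9 CPM with digoxin. The digoxin mice were both above the vehicle mice, with a log2 difference of 0.33 ± 0.09 (SE) and a limma adjusted p of 1.000. mt-Nd4l of complex I was at 154 and 128 CPM against 156 and 194 CPM, a log2 difference of 0.31 ± 0.14. For mt-Nd4l digoxin mouse 2 was the highest, and digoxin mouse 1 was close to vehicle mouse 1. Both genes overlap a neighbor on a shared transcript, mt-Atp6 and mt-Nd4, so their share of the reads is uncertain. mt-Atp6 was at 12982 and 13429 CPM against 12767 and 12794 CPM. mt-Co1, the catalytic subunit of complex IV, was at 8609 and 9497 CPM against 8849 and 8469.6 CPM, and the groups overlapped.

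Among nuclear members of malignant cells, Ndufa4, named for complex I but also found with complex IV, was at 762 and 836 CPM with vehicle and 752 and 800.3 CPM with digoxin. Sdhb was at 100.3 and 93.2 CPM against 91.1 and 101 CPM, and Uqcr11, a small subunit of complex III, at 449.9 and 414 CPM against 439.6 and 485 CPM. Cox6c of complex IV was at 1529 and 1455 CPM against 1470.2 and 1514 CPM, and Atp5g2 at 1114.5 and 1105 CPM against 1088 and 1123 CPM. Atp5k, a small subunit of complex V among the 3 with the smallest p, was at 247 and 212 CPM against 243 and 281 CPM, and mt-Nd6 of complex I at 37.2 and 35.4 CPM against 36.4 and 44.7 CPM. The groups overlapped in these 7 genes. Ndufa4l2, a relative of Ndufa4 known to be induced in hypoxia, had the smallest p of the nuclear members, with 4.88 and 4.31 CPM against 3.28 and 3.95 CPM and a log2 difference of −0.28 ± 0.13 (limma adjusted p = 1.000). Both digoxin mice lay above both vehicle mice for 3 of 80 nuclear members and below for 6, where 12.8% and 16.6% of all genes did.

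In the non-malignant cells the mt- values of the digoxin mice were the lower ones, and no single gene passed the adjusted threshold. The mt- share was 5.58% and 6.88% with vehicle and 5.02% and 4.77% with digoxin, or 6.23% ± 0.918 against 4.90% ± 0.181 (SD, n = 2 each). The nuclear share was 2.14% and 2.32% against 2.12% and 2.22%, which overlap. limma called 0 of 93 members and 0% of 14962 genes, and edgeR and DESeq2 called 0 members. At an unadjusted p under 0.05, 4 members passed, each of them an mt- gene, where 3.92% of all genes passed. All 13 mt- log2 differences were below 0, where 56.8% of all genes were, with a median of −0.25 against −0.03 for the nuclear members and −0.02 for all genes. In 11 of 13 both digoxin mice were below both vehicle mice, where 20.5% of all genes were. The mt- genes share precursor transcripts, so they are not independent of each other.

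Cytochrome b (mt-Cytb), the mt- subunit of complex III, had the smallest p, at 4053 and 4905 CPM with vehicle and 3496 and 3487 CPM with digoxin. Its log2 difference was −0.35 ± 0.12 (limma adjusted p = 0.976). mt-Nd1, a core subunit of complex I, was at 3207 and 3450 CPM against 2843 and 2746 CPM, a log2 difference of −0.25 ± 0.10. mt-Co3 of complex IV was at 12275 and 15326 CPM against 10922 and 10293 CPM, a log2 difference of −0.37 ± 0.15. Vehicle and digoxin mice did not overlap in these genes. mt-Atp6 of complex V was at 10897 and 14967 CPM against 9984 and 9535 CPM, and vehicle mouse 2 stood above the other 3. mt-Atp8 overlapped between groups, at 97.5 and 116 CPM against 106 and 104.5 CPM, as did mt-Nd6, at 33.9 and 37.2 CPM against 32 and 34.6 CPM. Of the nuclear members Ndufc2, an accessory subunit of complex I, was at 198 and 218 CPM against 185 and 188 CPM, and the digoxin pair was the lower one.

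The size of the difference depended on vehicle mouse 2. Without it the mt- median was −0.16, with 12 of 13 below 0, and without vehicle mouse 1 it was −0.38. The cell types of that mouse also differed. Vehicle mouse 2 held 152 osteoclasts, where the others held 28, 47 and 36, and all 30 cells named Unknown. Of its 2456 macrophages, 1511 were in the M2 sub-cluster, against 948 of 2418 in vehicle mouse 1 and 1136 of 2748 and 1191 of 2741 in the digoxin mice. Within the macrophage sub-clusters the digoxin mice also had the lower mt- shares. Malat1, a nuclear-retained RNA, was at 9943 and 10715 CPM with vehicle and 11490 and 12230 CPM with digoxin, and its part in the mt- difference was not tested.

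**Figure D2:**
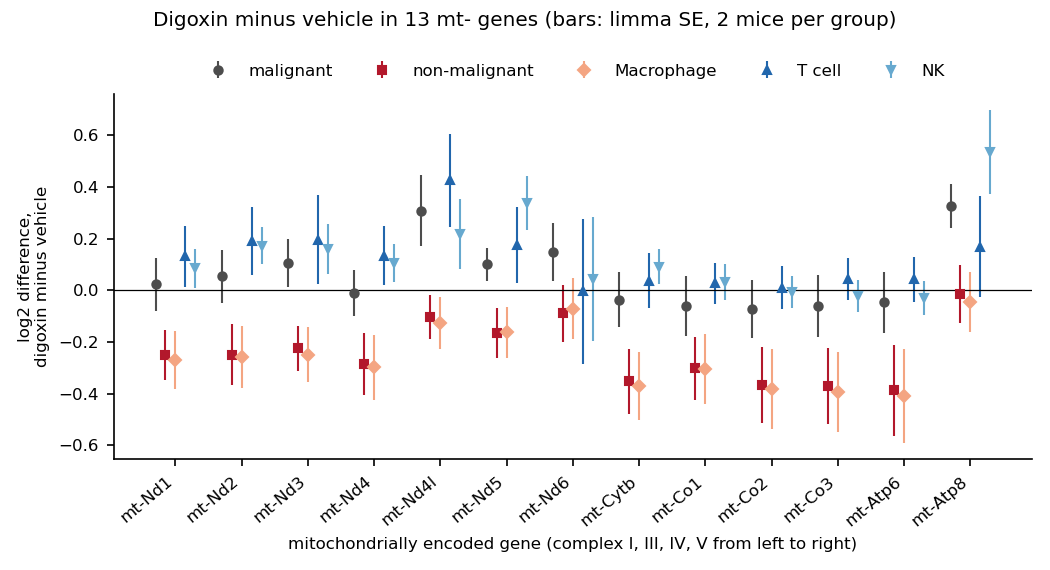
The log2 difference, digoxin minus vehicle, of each mt- gene by population, with limma standard errors. All 13 genes lie below 0 in non-malignant cells and in macrophages, and 7 of 13 lie above 0 in malignant cells.

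The lower mt- values were present in macrophages and in each of their 3 sub-clusters. In macrophages the mt- share was 5.77% and 6.92% with vehicle and 5.05% and 4.82% with digoxin, while the nuclear share was 2.11% and 2.13% against 2.09% and 2.20%. In M1 macrophages the mt- share was 4.59% and 4.90% against 4.14% and 3.92%, in M2 macrophages 7.20% and 7.99% against 6.11% and 5.73%, and in the Highly proliferative M2 cells 5.62% and 6.21% against 5.02% and 4.75%. Both digoxin mice were below both vehicle mice in each sub-cluster. The nuclear-retained RNAs Malat1 and Neat1, read as signs of cell quality, were at 8512 and 9581 CPM against 10483 and 11346 CPM and at 771 and 874 CPM against 899.8 and 973 CPM in macrophages. Both were higher in both digoxin mice, and their part in the mt- difference was not tested. The median depth of macrophages was 16403 and 16070 UMIs with vehicle and 16133 and 17049 with digoxin. limma called 0 members and 0% of 13786 genes, edgeR and DESeq2 called 0 members, and 3 members passed an unadjusted p under 0.05, where 4.05% of genes did. All 13 mt- differences were below 0, where 51.5% of genes were, and the mt- median was −0.27 and the nuclear median 0.03. In 11 of 13 mt- genes both digoxin mice were below both vehicle mice, where 17.2% of genes were. The size depended on vehicle mouse 2 here too. Without it the mt- median was −0.19, with 12 of 13 below 0, and without vehicle mouse 1 it was −0.35. mt-Cytb was at 4136 and 4858 CPM against 3445 and 3493 CPM (limma adjusted p = 1.000). Atp5k was at 267 and 228 CPM against 269 and 301 CPM, with the digoxin pair just above the vehicle pair.

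**Figure D3:**
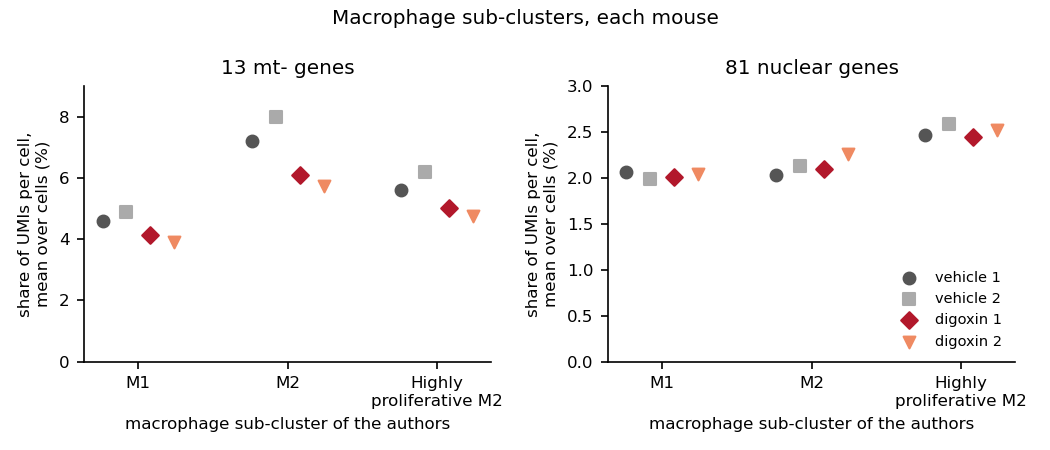
Share of UMIs (mean over cells, percent) from the mt- and the nuclear genes in the macrophage sub-clusters, 1 point per mouse. The digoxin mice are below the vehicle mice for the mt- genes in all 3 sub-clusters.

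In T cells and NK cells the mt- shares of the groups overlapped. In T cells the mt- share was 4.19% and 3.74% with vehicle and 4.21% and 4.0% with digoxin, and 12 of 13 log2 differences were above 0, with a median of 0.13. In NK cells it was 3.83% and 3.92% against 4.10% and 3.78%, and 10 of 13 were above 0, with a median of 0.09. Each digoxin mouse had 1 T cell and 1 NK cell above 20% mt- UMIs, where the vehicle mice had 0, and these cells were kept in the means. The mt- share of the median T cell was 3.93% and 3.60% with vehicle and 3.67% and 3.61% with digoxin. That of the median NK cell was 3.61% and 3.71% against 3.82% and 3.58%. Over all genes 53.2% of the differences were below 0 in T cells and 46.8% in NK cells. The digoxin pair lay above the vehicle pair for 7 of 13 mt- genes in NK cells, where 19.4% of genes did. Among the nuclear members of NK cells the digoxin pair was below for 25 of 74, where 16.6% of genes were. It was above for 6, where 19.4% of genes were. The nuclear median was −0.05, against 0.02 over all genes, and 52 of 74 differences were below 0. In T cells the digoxin pair was below for 20 of 75 nuclear members, where 18.8% of genes were. It was above for 10, where 1312 of 9182 genes were, and the nuclear median was −0.03 against −0.02 over all genes. mt-Atp8 in NK cells was at 59.4 and 69.6 CPM with vehicle and 90.6 and 96.6 CPM with digoxin, and the log2 difference there was 0.53 ± 0.16 (limma adjusted p = 0.653). mt-Nd4l in T cells was at 126 and 99.4 CPM against 145 and 156 CPM, a log2 difference of 0.43 ± 0.18 (limma adjusted p = 0.982). Ndufs7, a core subunit of complex I, was at 128 and 139 CPM against 106 and 106 CPM in NK cells. In T cells Atp5c1, the central stalk subunit of complex V, was at 372 and 414 CPM against 339 and 327 CPM and Ndufa10, an accessory subunit of complex I, at 97.3 and 103 CPM against 75.5 and 84.5 CPM. The digoxin pair was the lower one in these 3 genes. limma called 0 members in either type, where 0% and 0.0772% of genes passed. Unadjusted, 1 member passed in T cells and 4 in NK cells, where 4.24% and 6.27% of genes did, and edgeR and DESeq2 called 0. Without vehicle mouse 2 the median log2 difference of the mt- genes in T cells was −0.03, so its direction rested on that mouse. The macrophage gene C1qa was at 112 and 473 CPM against 125 and 203 CPM in T cells, highest in vehicle mouse 2, and its part was not tested. mt-Nd2 in T cells was at 2079.8 and 1562 CPM against 2025 and 2088 CPM, mt-Nd3 at 699 and 468 CPM against 639.7 and 672 CPM, and Ndufv2, a core subunit of complex I, was at 99.5 and 159.6 CPM against 103 and 99.1 CPM in NK cells. In each of the 3 genes vehicle mouse 2 stood apart and vehicle mouse 1 was close to the digoxin mice. These genes passed without vehicle mouse 1, when 2.30% of T cell and 1.96% of NK cell genes did, and no member passed without vehicle mouse 2. With 1 vehicle mouse the spread comes from the digoxin pair alone, and the lone mouse is assumed to vary like it. Whether macrophages and lymphocytes differ in their response was not tested.

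In the other types limma called 0 members, where 0.461% of genes passed in the type named Epithelial, 0.0653% in that named Microglia, 0.0121% in osteoclasts and 0% in fibroblasts. Unadjusted, 2, 0, 1 and 1 members passed, where 5.76%, 4.88%, 6.17% and 3.01% of genes did, and edgeR and DESeq2 called 0. In the same order, 10, 8, 7 and 10 of 13 mt- differences were below 0, with medians of −0.14, −0.05, −0.01 and −0.11. Of all genes, 5163 of 10403, 3040 of 6129, 3675 of 8262 and 5215 of 9521 were below 0. The digoxin pair was the lower one for 0, 2, 0 and 5 of 13 mt- genes, and for 1705, 1022, 1214 and 1765 of all genes. In the type named Epithelial, which held 80 to 98 cells per mouse, all 4 mast cell genes of the marker list were higher in both digoxin mice. Cpa3 was at 0 and 16.8 CPM against 759.8 and 909 CPM, Mcpt4 at 0 and 45.9 CPM against 1448 and 1329 CPM, Tpsb2 at 0 and 36.3 CPM against 905 and 1583 CPM and Cma1 at 0 and 76.8 CPM against 1510.1 and 1404 CPM, and their part in the differences of this type was not tested. There mt-Atp6 was at 17039 and 14003 CPM against 14382 and 11391 CPM, where vehicle mouse 1 was the highest, and its log2 difference was −0.27 ± 0.13 (limma adjusted p = 0.894). Without vehicle mouse 2, mt-Atp6, mt-Co2, mt-Co3 and mt-Cytb passed as lower, when 2.38% of genes did, and the mt- median was −0.28. Without vehicle mouse 1 the mt- median was 0.02 and no mt- gene passed, while Cox7a2l did, when 3.50% of genes passed. As in T and NK cells, the spread then came from the digoxin pair alone. Cox7a2l, which helps to join complexes III and IV, was at 291 and 340.3 CPM with vehicle and 279 and 251 CPM with digoxin in macrophages. It was at 341 and 389 CPM against 316 and 308 CPM in NK cells and at 419 and 439.5 CPM against 344 and 360.4 CPM in the type named Microglia. In the type named Epithelial it was at 356 and 461 CPM against 348 and 334 CPM, and in osteoclasts at 713 and 785 CPM against 640.3 and 635 CPM. The digoxin mice were the lower pair in these 5 types, as they were for 17.2% of genes in macrophages, 16.6% in NK cells, 16.7% and 16.4% in the types named Microglia and Epithelial, and 14.7% in osteoclasts. The groups overlapped in T cells, at 395 and 429 CPM against 408 and 345 CPM, in fibroblasts, at 209.8 and 263 CPM against 241 and 208 CPM, and in malignant cells, at 237 and 281 CPM against 259 and 234 CPM. Vehicle mouse 2 had the highest level in each of these 8 populations, and in macrophages, NK cells and the type named Epithelial vehicle mouse 1 was nearer to digoxin mouse 1 than to it. In osteoclasts the digoxin pair lay below the vehicle pair for 28 of 77 nuclear members, where 14.7% of genes did. Ndufs5, an accessory subunit of complex I, was at 640 and 593 CPM against 469.7 and 548 CPM in osteoclasts and at 216 and 198 CPM against 249 and 256 CPM in the type named Epithelial, where the digoxin pair was the higher one. Ndufa4l2 in fibroblasts was at 85.2 and 127 CPM against 133 and 247 CPM, a log2 difference of 0.79 ± 0.33 (limma adjusted p = 0.999). Digoxin mouse 2 was the highest there, and digoxin mouse 1 was close to vehicle mouse 2.

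The digoxin difference was then compared between compartments of the same mice. Its log2 value in malignant minus that in non-malignant cells was above 0 for 13 of 13 mt- genes, with a median of 0.30, against 0.06 for the nuclear members and 0.02 for all genes, of which 45.2% were below 0. Both digoxin mice lay above both vehicle mice in that gap for 13 of 13, where 19.2% of 16024 genes did. limma called 0 members and 0% of genes, and edgeR and DESeq2 called 0 members. Unadjusted, 6 mt- genes and 1 nuclear member passed, where 4.08% of genes did. mt-Nd5 of complex I had a value of 0.27 ± 0.08 (limma adjusted p = 0.971). The mt- median was 0.15 without vehicle mouse 2.

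Malignant cells were compared with non-malignant cells of the same 4 mice, with the mouse as a block. limma called 69 of 93 members, where 82.8% of 16024 genes passed. Of the 80 nuclear members, 30 were higher and 35 lower in malignant cells, where 41.9% and 40.9% of genes were, so members were not called more often than other genes. The compartments were defined by the authors on these same cells, by a rule not given in the sources used here, and depth differed between them. The p-values between compartments therefore describe the cells as divided and are not an independent test. The nuclear share was 2.41% ± 0.0662 in malignant and 2.20% ± 0.0897 in non-malignant cells (SD, n = 4). In the shallowest class of malignant cells, with a median of 23685 to 29162 UMIs, it was 1.98% to 2.16%. In the deepest class of non-malignant cells, with 25471 to 28593 UMIs, it was 2.45% to 2.91%. That class also holds osteoclasts, so in the deepest class of macrophages alone, chosen after seeing the data and with 23944.5 to 28028 UMIs, the nuclear share was 2.36% to 2.45%.

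The calls by complex are counts with no test between complexes. Genes were assigned to a complex by symbol, so Ndufa4 and Ndufa4l2 are counted in complex I. In complex I, 16 of 37 nuclear members were higher in malignant cells and 13 lower, close to the shares of all genes. In complex II, 4 of 4 were lower. In complex III, 1 of 8 was higher and 4 lower, and in complex IV, 4 of 15 were higher and 11 lower. Those 11 include the alternative genes Cox6a2, Cox6b2, Cox4i2 and Cox7a1, used in particular tissues. In complex V, 9 of 16 were higher and 3 lower. The counts of complexes II and IV were the same under each alternative setting and with each mouse left out. The lower count of complex III was 2 to 5 over them, with 2 by edgeR with TMM scaling, and the higher count of complex V was 6 to 10, lowest without vehicle mouse 1 or either digoxin mouse.

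**Figure D4:**
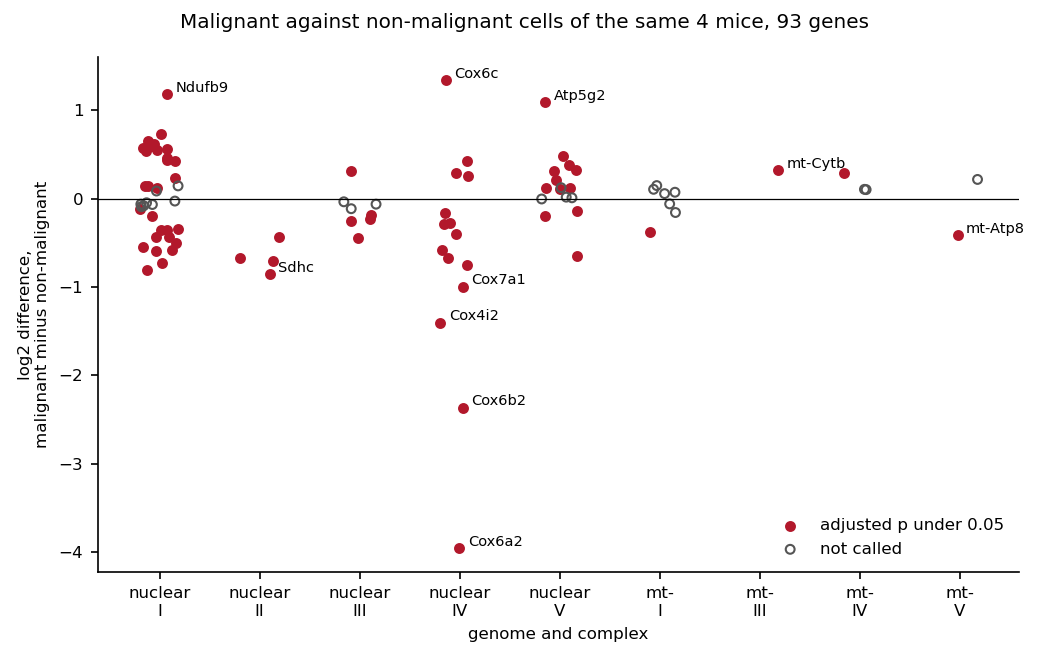
The log2 difference, malignant minus non-malignant, of 93 members by complex, with calls at a limma adjusted p under 0.05 marked. The 4 complex II genes lie below 0, and complex IV holds both the highest value, Cox6c, and the lowest, Cox6a2.

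All 4 genes of complex II were lower in malignant cells than in non-malignant cells, which were mostly macrophages. Against macrophages of the same mouse, 4 of 4 were also lower in every mouse in fibroblasts and NK cells, where 36% of genes were. In T cells 2 of 4 were lower, where 29.8% of genes were. In the type named Epithelial 4 of 4 were lower, with a median log2 difference of −0.44 against 0.13 over all genes. In the type named Microglia 2 of 4 were lower and 1 higher, with a median of −0.57 against −0.17 over all genes. The share of all genes that were lower is not given for the types named Epithelial and Microglia. In osteoclasts 4 of 4 were higher, where 20.2% of genes were. Sdha, the flavoprotein that oxidizes succinate, was at 68.4, 67.6, 66.2 and 67.3 CPM in malignant and 114, 117, 109.7 and 101 CPM in non-malignant cells. The compartments did not overlap, and the log2 difference was −0.70 ± 0.04 (limma adjusted p = 5.53e-06). Fibroblasts had Sdha at 67.1, 86.2, 91.8 and 58.6 CPM. Sdhb was at 96.4 ± 5.06 CPM in malignant against 154 ± 17.5 CPM in non-malignant cells (SD, n = 4). The membrane anchors Sdhc and Sdhd were at 45.4 ± 0.224 CPM against 82.8 ± 2.40 CPM and at 88.7 ± 2.03 CPM against 120.2 ± 6.31 CPM.

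In complex I, Ndufb9, an accessory subunit, was at 651 ± 17.3 CPM against 287 ± 23.1 CPM, a log2 difference of 1.18 ± 0.05. Ndufa5, Ndufb5, Ndufa4, Ndufa12 and Ndufa2 were higher by 0.58 to 0.73 on the log2 scale. Of these, Ndufa4 is placed here by its symbol only, as it is also found with complex IV. Ndufa3 and Ndufb3 fell in malignant cells, with log2 differences of −0.81 and −0.72.

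The 3 genes for subunit c, which forms the rotating ring of complex V, differed in direction. Atp5g2 was at 1114.5, 1105, 1088 and 1123 CPM in malignant cells and 518, 574, 492 and 492 CPM in non-malignant cells, a log2 difference of 1.09 ± 0.05 (limma adjusted p = 1.07e-06). Atp5g1 was at 499.9 ± 50.6 CPM against 397 ± 38.6 CPM, a log2 difference of 0.33 ± 0.07. Atp5g3 was at 253 ± 16.4 CPM against 289 ± 6.90 CPM, a log2 difference of −0.19 ± 0.04, and did not pass in edgeR with TMM scaling (adjusted p = 0.0908), but did in edgeR with DESeq2 size factors (adjusted p = 0.0472) and in DESeq2 (adjusted p = 0.0432). In osteoclasts Atp5g1, Atp5g2 and Atp5g3 were at 1254 ± 94.6 CPM, 923 ± 80.9 CPM and 938 ± 59.0 CPM.

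In complex IV, Cox6c was at 1529, 1455, 1470.2 and 1514 CPM in malignant and 568, 618, 565 and 606 CPM in non-malignant cells, a log2 difference of 1.34 ± 0.04. Cox7c, Cox7b and Cox7a2 were also higher, by 0.43, 0.29 and 0.25. Cox5a, Cox5b, Cox6b1 and Cox8a were lower, with log2 differences of −0.74, −0.67, −0.58 and −0.40. Cox4i1, the common form of subunit 4, had −0.17 ± 0.04. The lowest values were those of 4 alternative genes, Cox6a2 (−3.96), Cox6b2 (−2.36), Cox4i2 (−1.40) and Cox7a1 (−0.99). Their non-malignant levels are means over all types, and Cox6a2, Cox4i2 and Cox7a1 were high in particular types with few cells, described next.

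Alternative genes had high levels in particular types. Cox6a2, known from heart and skeletal muscle, was at 865, 790, 878 and 851 CPM in the type named Microglia, which held 31 to 58 cells per mouse. It was at 5.35 to 12.9 CPM in macrophages and 0.217 to 0.333 CPM in malignant cells. The common form Cox6a1 was at 194 to 287 CPM in the type named Microglia. There the muscle genes Myod1 and Des were at 0 and at 0 to 2.20 CPM. Of the dendritic cell genes listed, Flt3 was at 128 to 212 CPM and Clec9a at 38.7 to 71.3 CPM in that type. Xcr1 was at 0 and Zbtb46 at 0 to 2.06 CPM. Which cells the type holds was not tested. Cox4i2, known from lung, was at 85.8 and 63.3 CPM with vehicle and 53.05 and 46.2 CPM with digoxin in the type named Epithelial, and at 0.123 to 0.880 CPM in malignant cells. Its digoxin difference in that type was −0.56 ± 0.21 (limma adjusted p = 0.655), but 0.46 with summed UMIs. Of the pericyte and smooth muscle genes listed, Rgs5 was at 502 to 731 CPM in the type and Myh11 at 5.26 to 36.9 CPM. Both were higher there than in fibroblasts, at 1.15 to 3.39 CPM and 0 to 0.275 CPM. Pdgfrb, at 51.07 to 71.4 CPM, was lower than in fibroblasts, at 92.99 to 134.35 CPM. Cspg4, at 4.51 to 21.8 CPM, overlapped fibroblasts, at 7.77 to 20.6 CPM. The mast cell genes given above were higher with digoxin. The part of the pericyte or mast cell genes in the Cox4i2 level or difference was not tested.

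Ndufa4l2 was at 155, 134, 146 and 135 CPM in the type named Epithelial and at 85.2, 127, 133 and 247 CPM in fibroblasts. It was at 3.28 to 4.88 CPM in malignant cells and 0.338 to 0.984 CPM in macrophages. Cox7a1, known from muscle, was at 101, 90.5, 76.6 and 103 CPM in osteoclasts, 7.20 to 10.1 CPM in macrophages and 3.60 to 4.64 CPM in malignant cells. Its common counterpart Cox7a2 was at 881 to 1059.6 CPM in osteoclasts. Cox8b had 0 to 9 UMIs per mouse over all non-malignant cells.

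**Figure D5:**
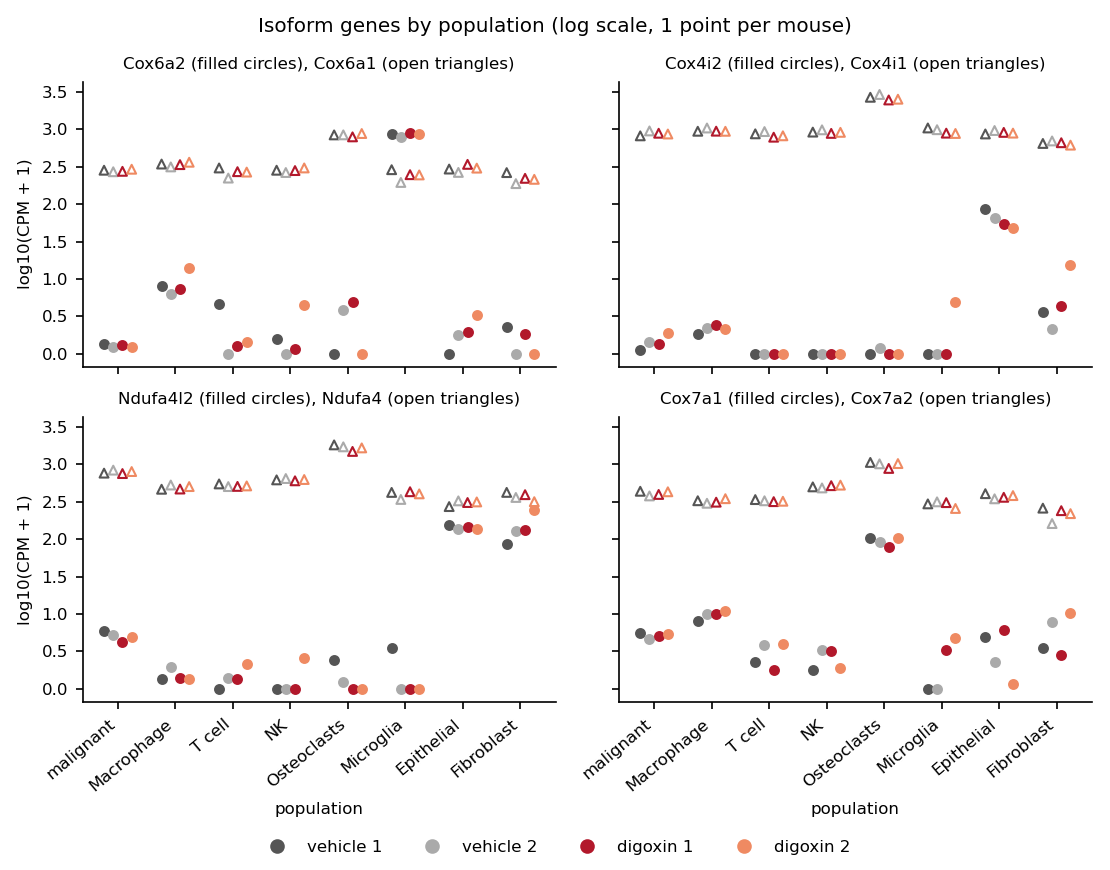
Level of alternative genes and their common counterparts by population, 1 point per mouse, on a log scale of CPM. Cox6a2 is high in the type named Microglia, Cox4i2 in that named Epithelial, Ndufa4l2 in that type and fibroblasts, and Cox7a1 in osteoclasts.

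Of the mt- genes, limma called mt-Cytb (0.33 ± 0.10) and mt-Co3 (0.29 ± 0.09) higher and mt-Atp8 (−0.41 ± 0.08) and mt-Nd4l (−0.37 ± 0.10) lower in malignant cells, 4 of 13 where 82.8% of all genes were called. With summed UMIs 0 were called higher and 3 lower, and the mt- median went from 0.10 to −0.03. Without vehicle mouse 2, 8 were called higher and 2 lower, when 82.5% of all genes were called. Without vehicle mouse 1, digoxin mouse 1 or digoxin mouse 2, 0 were called higher, so the calls of mt-Cytb and mt-Co3 were lost in 3 of the 4 cases, and edgeR and DESeq2 called 0 higher. mt-Atp8 stayed lower under each setting and with each mouse left out, as did mt-Nd4l except with mt- UMIs taken out of the denominator. mt-Cytb was at 5285, 4762, 4795 and 4992.5 CPM in malignant and 4053, 4905, 3496 and 3487 CPM in non-malignant cells, and only in vehicle mouse 2 was the malignant value the lower one.

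Other genes of the pathway were read from lists. With digoxin, limma called 0 genes of each list in malignant cells, non-malignant cells and macrophages. Between compartments, 44 of 78 mitochondrial ribosomal protein genes were higher in malignant cells and 18 lower, with a median log2 difference of 0.20, against 0.00 over all genes, of which 41.9% were called higher and 40.9% lower. Mrps6 was at 90.9 ± 9.18 CPM against 26.9 ± 2.54 CPM and Mrpl22 at 74.9 ± 8.82 CPM against 31.1 ± 2.12 CPM, the most raised in malignant cells, and Mrpl23 at 86.9 ± 2.19 CPM against 150 ± 8.89 CPM and Mrpl33 at 170.3 ± 5.74 CPM against 275 ± 14.0 CPM, the most lowered. Of the genes of mtDNA expression and its regulators, 12 of 22 were higher and 5 lower, with a median of 0.26. Polg2, a subunit of the mtDNA polymerase, was at 24.1 ± 3.08 CPM against 11.1 ± 1.08 CPM, and Tefm, an elongation factor of mtDNA transcription, at 9.89 ± 0.771 CPM against 4.29 ± 0.671 CPM. The regulators Esrra and Ppargc1b were at 4.60 ± 0.25 CPM against 17.3 ± 1.06 CPM and at 1.89 ± 0.150 CPM against 13.7 ± 4.26 CPM. Assembly factors had shares close to those of all genes, 20 higher and 20 lower of 46, with Ndufaf2 of complex I at 58.6 ± 4.34 CPM against 25.5 ± 2.52 CPM and Dmac1, also of complex I, at 25.9 ± 1.32 CPM against 108 ± 3.73 CPM. Acad9, a complex I factor, was at 23.0 ± 0.703 CPM against 10.3 ± 1.09 CPM, and Cox16, a complex IV factor, at 3.48 ± 0.395 CPM against 14.9 ± 0.734 CPM. In the citric acid cycle 6 of 13 were higher and 4 lower, also near those shares, with Suclg2 at 79.65 ± 4.43 CPM against 32.2 ± 0.753 CPM and Ogdh at 35.7 ± 0.682 CPM against 70.1 ± 4.78 CPM. Suclg1, which pairs with Suclg2 in succinyl-CoA ligase, was at 137 ± 6.04 CPM against 95.0 ± 6.74 CPM, and the fumarase Fh1 at 49.0 ± 3.26 CPM against 77.4 ± 9.30 CPM. Of 3 subunits and carriers outside the rule, Cyc1 of complex III was higher (0.32) and Cycs, cytochrome c, lower (−0.34), a call lost with summed UMIs (limma adjusted p = 0.0817) and in edgeR and DESeq2 (adjusted p = 0.125 to 0.207).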

How the data were processed

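Single-cell RNA was counted in tumors of 4 mice, 2 per treatment. The authors deposited gene tables as the natural log of 1 plus UMIs per 10000 UMIs of the cell, with the UMI count of each cell in a separate table, as the values show. Cell Ranger 3.0.2, Seurat 3.0.2 and build mm10 are named, per the submitters' processing notes, without a role. The aligner's settings, the annotation and the rules for cells and compartments are not given in the sources used here. UMIs recovered from the deposited values were whole for 100% of values within 0.01, and sums equaled the deposited count in each of 18963 malignant and 12648 non-malignant cells.

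Each mouse was a replicate, a separate animal per the design text. Cell names of vehicle mouse 2 carry the number 3, but the deposited cell tables give replicate 2, as its title does, and that number was used. CPM were averaged over cells per mouse and tested as log2(CPM + 1) with limma 3.58.1 (R 4.3.3) over genes with at least 10 UMIs in at least 2 samples, so a difference understates the change of low genes. Populations with under 20 cells in a mouse were not tested. edgeR 4.0.16 and DESeq2 1.42.0 on summed UMIs were alternatives, and the fits were tested on simulated data. No doublet caller was run, and no cell was removed. Genes named are mt- genes, alternative gene sets, complex II, the nuclear member with the highest mean CPM of each complex, up to 8 called genes per direction with the largest difference or, with none called, the 3 with the smallest p (2 for a type), and the 2 highest and 2 lowest called genes of each list. Members and lists were chosen with earlier results of these data known. One item of the genotype is not reported here.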

Additional observations from a re-analysis of the deposited data

How the results depend on the processing

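Leaving out 1 mouse at a time, the members called ranged from 0 to 4 in the type named Epithelial, 0 to 1 in NK cells and 0 to 2 in T cells. The malignant mt- share difference, −0.182 points as a mean over cells, was −0.440 with summed UMIs and −0.466 in cells with at most 20% mt- UMIs. The log2 of nuclear over mt- share there differed by 0.0668, and by 0.133 and 0.151 under those settings. The cause was not tested. Of the values for single genes under alternatives, 1781 kept direction and side of the threshold, 15 lost and 13 gained a call, and 61 moved. Same-numbered mice had deviations correlated at −0.363 in malignant and 0.0124 in non-malignant cells, so the numbers were not taken as pairs. With the replicate number as a block, 0 members were called in each population, and over all genes 2 were called in non-malignant cells, 86 against 48 in the type named Epithelial, 23 against 7 in NK cells and 57 against 0 in T cells. With the numbers crossed, chosen after seeing the data, 0 genes were called in malignant cells. DESeq2 called 44 genes in malignant and 30 in non-malignant cells, none of them members. With 2 mice per group, 1.5-fold changes were simulated with 1 fixed spread for every gene, not estimated from these data. They were recovered for 52.5% of genes in malignant cells, so smaller differences can be missed. The percentage depends on that spread, and the digoxin comparisons of non-malignant cells and single types were not simulated.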
